A study of Homo sapiens with 79 samples.

Results

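HUR, the RNA-binding protein encoded by ELAVL1, was followed here by formaldehyde RNA immunoprecipitation (fRIP) sequencing, in which proteins are crosslinked to RNA in intact cells, 1 protein is pulled down with an antibody and the RNA that comes with it is sequenced. The measurements described are 6 of the 79 libraries of the series, 3 HUR fRIP libraries and the 3 libraries of input set 3, the nearest of 3 sets of input RNA. The other fRIP libraries cover 23 further proteins, of which HNRNPU, HNRNPH1 and PABP serve below as comparisons. All libraries came from K562, an established human erythroleukemia line, with no genetic change, drug or time course in the labels. The cells were fixed with 0.1% formaldehyde for 10 minutes and lysed by sonication, and lysate from about 5000000 cells was incubated with 6 micrograms of a Santa Cruz antibody against HuR. Input RNA was taken from such lysate before the pulldown, so both groups share the line, the fixation and the shearing. No library made with an antibody that has no target was analysed here, so a difference from input includes whatever RNA the beads and antibody retain by themselves. The study's methods call the fRIP replicates biological, made from different lysates on different dates.

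HUR is a ubiquitous member of the ELAV family, whose RNA recognition motifs hold U-rich and AU-rich single-stranded RNA. It resides mainly in the nucleus, shuttles to the cytoplasm, and is best known for binding the 3′ untranslated regions (3′UTRs) of unstable mRNAs and slowing their decay. It also contacts introns of unspliced transcripts. HNRNPU and HNRNPH1 are nuclear proteins, of which HNRNPH1 prefers runs of G, and PABP is the protein that coats poly(A) tails.

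Stretches of uridine are the sequence feature that is compared across mRNAs below, so the 30 bases of the 3′UTR richest in uridine runs are shown first for UFM1, an mRNA above input, for YBX1, another whose runs are shorter, for ELAVL1 itself, for 3 mRNAs below input (RPS29, NDUFA1, S100P) and, from the whole transcript, for the nuclear lncRNA MALAT1. Each is printed 5′ to 3′ as RNA with runs of 5 or more U in capitals, and was read from GRCh37 at the exons that GENCODE 44, lifted to that build, gives the transcript with the most input signal.
UFM1, exon 6, chr13:38936587-38936616, plus strand: UUUUUauuuauuuguuuugUUUUUUUUUUU
YBX1, exon 8, chr1:43167818-43167847, plus strand: cucUUUUUgguaauaacaaacgugUUUUUU
ELAVL1, exon 6, chr19:8028332-8028361, minus strand: ucaugcUUUUUUUUguacggaauagauaau
MALAT1, exon 2, chr11:65271763-65271792, plus strand: ggcuuacuuguuguagcUUUUUUUUUUUUU
RPS29, exon 3, chr14:50050305-50050334, minus strand: ugauaauucuuuguauauaaaauaaacauu
NDUFA1, exon 3, chrX:119010567-119010596, plus strand: guguauuauguagcaugcaauguguuaugu
S100P, exon 2, chr4:6698814-6698843, plus strand: gcuucccaaaaguguuuguuggcaauuauu
Counted over the whole 3′UTR with overlapping matches on the transcribed strand, the letters UUUUUUU occur 13 times in UFM1, once in YBX1 and not at all in RPS29, NDUFA1 or S100P. The whole MALAT1 transcript holds 22 such matches. Single mRNAs did not divide cleanly by this feature. VSIG4 and ADCY10, enriched mRNAs with 25.5% and 26.2% U in the 3′UTR, hold 0 matches, and RPL39, a depleted one with 0 matches, has 33.9% U, above the 32.5% of UFM1. UUUUUUU occurs in 44.02% of the 12163 mRNA 3′UTRs of at least 50 bases, and AUUUA, the core of AU-rich elements, in 66.4% of them. The printed windows, chosen for their runs, hold 26 U in UFM1, 15 in YBX1, 14 in ELAVL1, 13 in RPS29 and NDUFA1 and 12 in S100P. The 3′UTRs are those of the transcript used, only 324 bases for ELAVL1 and 309 for ADCY10, beside a median of 931 bases. Other transcripts of these genes were not read. A match describes the sequence and does not mark a bound site.

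From the smallest steps between low FPKM values, the fragment count scaled by transcript length and library size, the HUR libraries held about 8860000, 8980000 and 4960000 counted fragments and the input libraries 14700000, 11800000 and 15200000. The 3 HUR libraries correlated with each other at 0.950 to 0.965 over genes and with the inputs at 0.905 to 0.918, while the inputs correlated with each other at 0.977 to 0.981. In the inputs all 10 K562 markers, among them GATA1, TFRC and the fetal globins, were at 1 FPKM or more, with a summed level of 2343 to 2514 FPKM. In HUR 9 of the 10 were, with a sum of 603 to 716 FPKM, and 7 were depleted. Of 14 listed markers of other cells, the B cell markers MS4A1 and CD79A and the T cell marker CD8A were at 0 in each HUR library. The summed level of the 14 was 126 to 135 FPKM in HUR and 133 to 153 FPKM in input, most of it from EPCAM, KRT18 and LYZ.

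Against input set 3, the RNA pulled down with HUR was richer in mRNAs with long, U-rich 3′UTRs and, on the deposited scale, in lncRNAs, pseudogene transcripts and retained introns, and poorer in many short mRNAs such as those of ribosomal proteins and the respiratory chain. Of 25442 genes with at least 1 FPKM in 2 or more libraries, 2180 were more than 2-fold above input at an adjusted p under 0.05 (limma on log2(FPKM + 1), Benjamini-Hochberg), which is 8.57%, and 1965 were below by the same rule, which is 7.72%; these are called enriched and depleted. With all 9 input libraries as the reference, 1634 genes (6.42%) were enriched and 1764 (6.93%) depleted. Against input set 1 alone the counts were 1017 and 1617. Each HUR library was above each of the 9 inputs for 1675 of the 2180 enriched genes, against 18.3% of all genes, and below each for 1752 of the 1965 depleted genes, against 13.4%. Against the 3 libraries of set 3 alone, the shares of all genes without overlap were 30.7% above and 20.1% below. The balance of the calls depends on scaling. The median gene had a log2 difference of 0.12 as deposited, and when each library was centred on its median gene this shifted to -0.23, with 854 genes enriched and 3318 depleted, so that the enriched share of calls went from 52.6% to 20.5%. All 854 of those genes and all 1965 depleted genes were called on both scales. This overlap follows largely from the shift itself, since centring moves every gene of a library by the same amount.

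**Figure D1:**
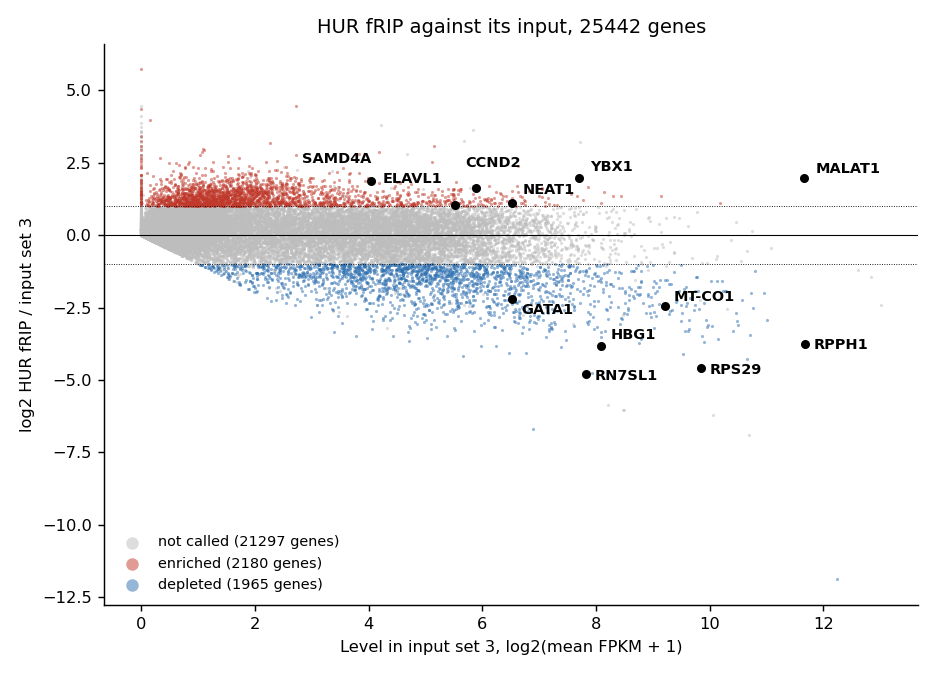
Log2 difference between HUR fRIP and input set 3 (vertical axis, on the log2(FPKM + 1) scale) against the level of each gene in input set 3 (horizontal axis, log2(mean FPKM + 1)) for 25442 genes, with the 2180 enriched and 1965 depleted genes coloured and the genes named in the text labelled. The points above input reach across low and middle levels, and the well-expressed end is occupied mainly by points below input, RPS29 and the other ribosomal protein mRNAs among them.

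Enrichment and depletion occupied different levels. Among 9365 genes with an input mean under 1 FPKM, 542 were enriched and 0 depleted, which the pseudocount of 1 largely fixes, since a gene under 1 FPKM cannot fall 2-fold on this scale. Among 8192 genes at 10 FPKM or more, 363 were enriched and 1575 depleted. Of the 2180 enriched genes, 1413 had at least 5 FPKM in HUR and 1 FPKM in input, and 45 were listed at 0 in each library of input set 3.

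ELAVL1, the gene of the precipitated protein, measured 102.9, 110.7 and 72.5 FPKM in HUR fRIP and 44.2, 48.3 and 42.4 FPKM in input. Each HUR library was above each of the 9 inputs, and the difference was 1.05 ± 0.16 on the log2 scale (SE, n = 3 and 3, adjusted p = 4.51e-07 by limma). The call stands close to the 2-fold limit. It was lost on the centred scale, where the difference was 0.70, against input set 2, where it was 0.91, and without HUR replicate 1 or 2, where it was 0.98 and 0.93.

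The mRNAs with the largest enrichment included both abundant and low-level genes. YBX1 encodes a cold-shock protein that packages mRNA, and it measured 764, 771 and 905 FPKM in HUR against 198, 205 and 220 FPKM in input. UFM1, a ubiquitin-like modifier of the endoplasmic reticulum stress response, measured 165, 151 and 180 FPKM against 39.7, 43.9 and 52.2 FPKM. TFAP4, a transcription factor of the helix-loop-helix class, measured 54.6, 39.6 and 38.3 FPKM against 13.2, 10.9 and 10.7 FPKM. In all 3, the lowest HUR library was above the highest of the 9 inputs, which the rule for naming genes requires. The log2 differences were 1.96 ± 0.27 for YBX1, 1.85 ± 0.23 for UFM1 and 1.83 ± 0.26 for TFAP4, with adjusted p values of 2.31e-08, 2.01e-09 and 7.51e-08 (limma). Of the 25-base words of YBX1, 34.9% also occur in its processed pseudogenes and other genes, so its reads may be divided among copies.

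SAMD4A, the mammalian Smaug, which represses translation, measured 54.4, 58.9 and 61.7 FPKM in HUR against 15.997, 15.497 and 14.6 FPKM in input, a difference of 1.86 ± 0.30. KCNJ16, an inward-rectifier potassium channel, measured 60.7, 56.8 and 65.7 FPKM against 14.6, 14.7 and 15.4 FPKM, a difference of 1.96 ± 0.33. By the same rule the groups do not overlap in either gene. With input set 1 as the reference KCNJ16 was no longer called (0.94). The same pattern at lower levels was seen for VSIG4, a complement receptor of macrophages (27.0, 20.6 and 22.4 against 6.30, 4.64 and 4.58 FPKM), for EPGN, an epidermal growth factor family ligand (19.0, 17.0 and 18.4 against 4.05, 4.13 and 3.45 FPKM), and for ADCY10, the soluble adenylyl cyclase (11.8, 12.4 and 15.8 against 2.02, 4.49 and 2.39 FPKM). Their log2 differences were 1.98, 1.97 and 1.89.

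NECAB1, a neuronal calcium-binding protein, had the largest difference among the mRNAs that the naming rule admits, at 51.7, 42.0 and 36.3 FPKM in HUR against 8.69, 9.43 and 8.39 FPKM in input (2.16 ± 0.20). ST6GALNAC2, a Golgi sialyltransferase, followed at 61.7, 55.3 and 46.3 FPKM against 10.98, 12.1 and 11.7 FPKM (2.13 ± 0.19). Both share ground with a transcript of the opposite strand. All exonic bases of ST6GALNAC2 lie within SNHG16, which was itself enriched by 1.71, and 21.1% of those of NECAB1 lie within opposite-strand genes, of which C8orf88 was enriched by 1.23. The kit does not mark strand, so reads of such overlapping partners cannot be told apart.

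**Figure D2:**
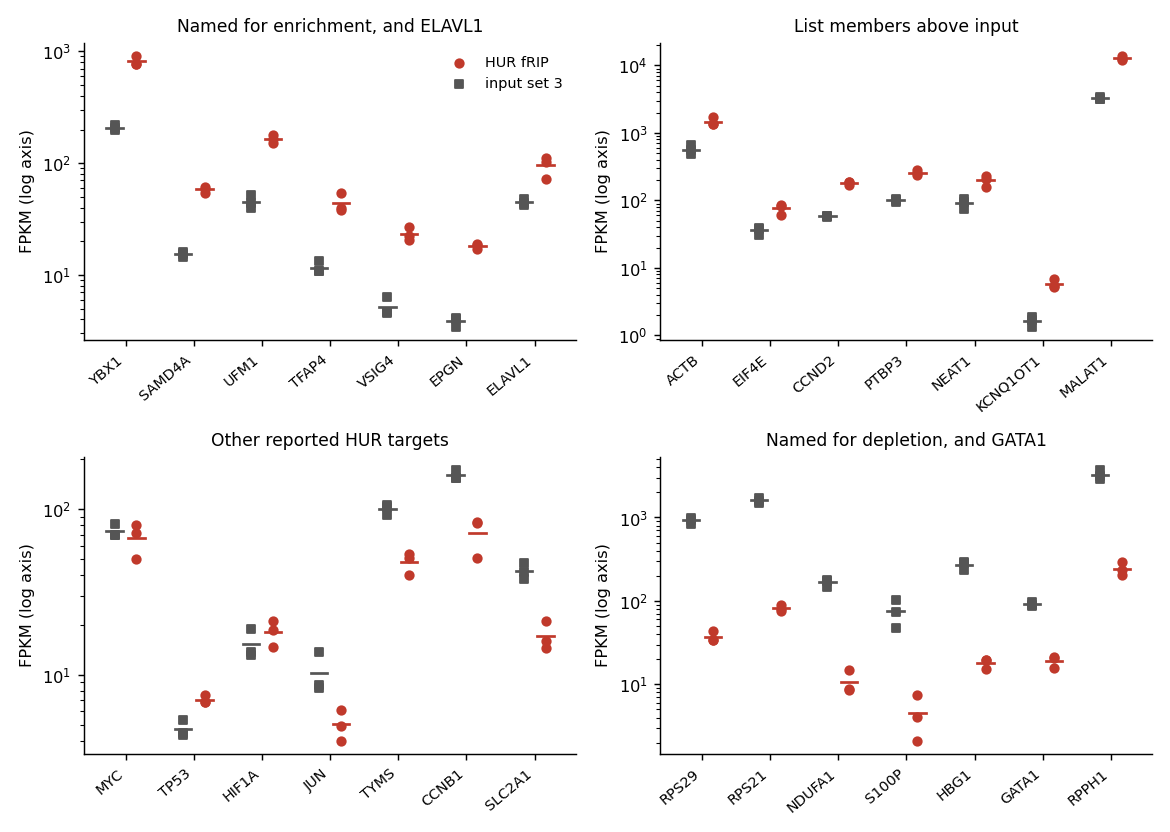
FPKM of single genes in the 3 HUR fRIP libraries and the 3 libraries of input set 3 (vertical log axis), 1 point per library and a short line at the mean, for mRNAs named for enrichment with ELAVL1, list members above input, other reported HUR targets, and genes named for depletion with GATA1. In the first panel each HUR point lies above each input point, and in the last panel each lies below. The naming rule requires this, except for ELAVL1 and GATA1, which were not chosen by it. MYC and HIF1A in the panel of reported targets have interleaved points.

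The mRNAs with the largest depletion were short and abundant. Of all 1588 depleted mRNAs, 883 had a transcript of 1000 bases or more. RPS29, a small ribosomal subunit protein, measured 43.1, 34.2 and 34.2 FPKM in HUR against 945, 835 and 981 FPKM in input, or 24.2-fold lower on the fitted scale (-4.60 ± 0.23, adjusted p = 4.74e-24 by limma). NDUFA1, a subunit of respiratory complex I, measured 8.55, 8.77 and 14.9 FPKM against 180, 147 and 172 FPKM (-3.87 ± 0.19). HBG1, the fetal gamma globin that K562 cells make in quantity, measured 15.3, 19.8 and 19.8 FPKM against 288, 293 and 234 FPKM (-3.83 ± 0.76), with 80% of its 25-base words shared with HBG2, which had a difference of -3.69. The naming rule requires every HUR library to be below all 9 inputs. It also admitted RPS21 (-4.29), RPS10 (-4.10), ROMO1 (-4.08), IFITM2 (-4.07), S100P (-3.82) and RPL39 (-3.71). ROMO1 is a small mitochondrial membrane protein, IFITM2 an interferon-induced antiviral protein and S100P a calcium-binding protein.

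The transcript classes differed in their direction. Of 13618 mRNA genes, 571 were enriched and 1588 depleted, whereas of 5245 lncRNA genes 715 were enriched and 118 depleted, and of 5247 pseudogenes 722 were enriched and 210 depleted, beside 8.57% and 7.72% of all genes. On the centred scale the counts were 166 and 2644 for mRNAs, 275 and 225 for lncRNAs and 351 and 361 for pseudogenes, beside 854 and 3318 over all genes. Enriched genes were thus 55% of the calls among lncRNAs and 49.3% among pseudogenes there, against 20.5% among all genes. Compared at matched input levels, the median lncRNA was above the median mRNA by 0.28 ± 0.03 on the log2 scale (SD over 3 HUR libraries, 0.30, 0.25 and 0.31), while single input libraries against the other inputs gave -0.01 to 0.01. The size of this gap depended on the pseudocount and filter, from 0.14 with no filter to 0.44 with 1 FPKM required in all libraries of a group. A direct test of it across libraries was not made.

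Where a noncoding gene sits relative to mRNA genes went with how often it was enriched. Of 567 lncRNAs inside an mRNA gene on the same strand, 149 were enriched (26.3%), against 165 of 1746 outside mRNA genes (9.45%) and 389 of 2694 that overlap an mRNA gene on the opposite strand (14.4%). For pseudogenes the shares were 16.9% of 889 inside an mRNA gene on the same strand, 25.3% of 1544 overlapping on the opposite strand and 6.52% of 2778 outside, where 147 were depleted and 181 enriched. Of those that partly overlap an mRNA gene on the same strand, 12 of 238 lncRNAs (5.04%) and 1 of 36 pseudogenes were enriched. Over all genes the share was 8.57%. Reads from introns of the surrounding pre-mRNA cannot be told apart from reads of a transcript lying within them.

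The lncRNAs with the largest differences were all of that overlapping kind. RP11-841O20.2 measured 61.5, 62.4 and 47.6 FPKM in HUR against 9.40, 13.2 and 9.55 FPKM in input (2.31 ± 0.22), and all its exonic bases lie opposite exons of ERO1A, an oxidase of the endoplasmic reticulum. RP11-484D2.4, inside TTC17, measured 41.9, 63.8 and 26.5 FPKM against 3.78, 2.28 and 5.30 FPKM (3.20 ± 0.71), and it was not called against input set 1. HM13-IT1, inside HM13, the gene of signal peptide peptidase, measured 13.0, 13.2 and 20.03 FPKM against 4.08, 0.418 and 4.90 FPKM (2.21 ± 0.34). RP11-456I15.2 (2.93, opposite RAB6A), CTD-3222D19.10 (2.87, opposite SLC35E1) and AC100830.5 (2.54, opposite OAZ2) completed the 6 that the rule admits. CTD-3222D19.10 was not called against input set 1 (2.14) or set 2 (1.51), nor with a replicate block in the fit of 6 libraries.

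Among 27 tested lncRNAs of known name, 3 were enriched and 5 depleted, beside 13.6% and 2.25% of all lncRNAs, with a median of 0.34 that became -0.01 on the centred scale, where 1 was enriched. KCNQ1OT1, the imprinted antisense transcript that silences neighbours in cis, measured 5.22, 5.45 and 6.96 FPKM in HUR against 1.35, 1.69 and 1.88 FPKM in input (1.38 ± 0.15). NEAT1, the scaffold of paraspeckles, measured 227, 210 and 161 FPKM against 95.0, 105 and 73.4 FPKM (1.12 ± 0.26), and its call was lost on the centred scale (0.77), against input set 1 (0.68) and without input replicate 3 (0.97). KCNQ1OT1 was not called against input set 1 (0.65). MALAT1, which resides in nuclear speckles, measured 12645, 12006 and 13696 FPKM against 3151, 3235 and 3372 FPKM, without overlap. Its difference of 1.97 ± 1.31, with an SE taken from the spread within all proteins of the series, did not pass the test (adjusted p = 0.253 by limma). The 4 depleted lncRNAs that the rule admits included small structured RNAs. RPPH1, the RNA of ribonuclease P, measured 203, 234 and 292 FPKM against 3169, 2928 and 3689 FPKM (-3.75 ± 0.22), and SCARNA2, a Cajal body RNA, measured 77.4, 74.6 and 97.3 FPKM against 1006, 843 and 930 FPKM (-3.47 ± 0.22). SNHG9 (-3.50) and LINC00273 (-3.38) were the other 2, and LINC00273 was not called against input set 1 (-1.05). The 5 depleted on the list of known lncRNAs were ZFAS1 (-3.23), TERC (-2.87), the telomerase RNA, EPB41L4A-AS1 (-2.67), LINC00152 (-1.79) and DANCR (-1.38). TERC was not called against input set 1 (-0.86).

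Within mRNAs, the HUR ratio went with features of the 3′UTR and with transcript length. Among 12163 mRNAs with a 3′UTR of at least 50 bases, transcript length had a mean Spearman correlation of 0.407 over the 3 HUR libraries. UUUUUUU per kilobase of 3′UTR had 0.348. The median 3′UTR of the 525 enriched mRNAs with a 3′UTR of at least 50 bases was 2037 bases, that of the 10235 not called 1056 bases and that of the 1403 depleted 308 bases. UUUUUUU was present in 69.3%, 46.9% and 13.7% of them, and U made up a median 32.1%, 29.9% and 25.8% of the 3′UTR. Across genes, the Spearman correlation of the HUR to input ratio with UUUUUUU per kilobase of 3′UTR was 0.38, 0.37 and 0.29 in the 3 HUR libraries, with 0.02, 0.09 and -0.10 for single input libraries set against the other inputs. AUUUA per kilobase gave 0.29, 0.28 and 0.21, and runs of the other 3 bases, counted the same way as controls, 0.26, 0.27 and 0.21. These values describe 12163 mRNAs, which are not independent replicates.

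When all 4096 words of 6 bases were ranked by the correlation of their 3′UTR density with the HUR ratio, UUUUUU was first, at 0.344 ± 0.050 (SD over 3 libraries). AUUUUU at 0.301 and AUUUUA at 0.299 came next. UAUUUA ranked 139, AUUUAU 282, AAAAAA 21 and GGGGGG 3473, and the polyadenylation signal AAUAAA was last at -0.107. UUUUUU kept rank 1 when any single library was left out. The same ranking in other fRIPs against their own nearest input gave UUUUUU rank 2703 in HNRNPU (0.042), 3918 in HNRNPH1 (-0.127) and 3870 in PABP (-0.184). The word ranked first was CAAAAA for HNRNPU, GGAGGG for HNRNPH1 and AAUAAA for PABP.

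The HUR ratio was higher with each step in the number of UUUUUUU matches. Averaged over the 3 libraries, the median log2 ratio was -0.20 among 6809 mRNAs with 0 matches, 0.04 among 1073 with 1, 0.16 with 2 to 3, 0.27 with 4 to 7, 0.41 with 8 to 15 and 0.48 among 911 with 16 or more. The enriched share went from 2.36% to 15.1% and the depleted share from 17.8% to 1.76% between the first and the last bin. In the PABP libraries, which share input set 3 with HUR, the median ratio went from 0.16 to -0.27 over the same bins. Since matches accumulate with length, the bins were repeated among 3′UTRs of 1000 to 1999 bases, where the medians were -0.07, 0.05, 0.18, 0.24, 0.36 and 0.41. In that window the PABP medians followed no such order, at 0.07 in the first bin, -0.13 with 8 to 15 matches and 0.09 in the last.

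**Figure D3:**
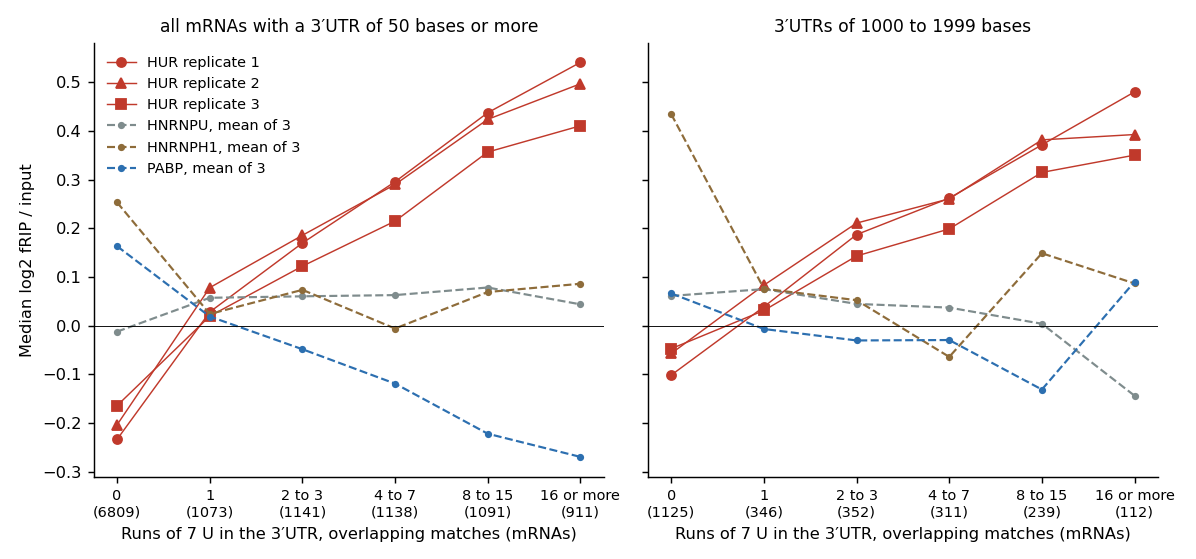
Median log2 ratio of fRIP to nearest input (vertical axis) by the number of overlapping UUUUUUU matches in the 3′UTR (horizontal axis, 6 bins) for the 3 HUR libraries and the means of HNRNPU, HNRNPH1 and PABP, over all mRNAs (left) and those with 3′UTRs of 1000 to 1999 bases (right). The HUR lines climb from -0.20 to 0.48 on average over all mRNAs and from -0.07 to 0.41 in the length window.

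Length and U runs are correlated with each other (0.508 across 11844 mRNAs with introns), so each was also viewed at a fixed value of the other. Within 5 equal classes of 3′UTR length, the correlation of the HUR ratio with UUUUUUU density was 0.08 in the shortest (50 to 290 bases), 0.15, 0.25 and 0.26 in the next 3, and 0.21 in the longest (2572 to 22929 bases), and UUUUUU ranked first among 6-base words in 3 of the 5. From the shortest to the longest class, the share of mRNAs depleted was 27.4%, 17.4%, 8.68%, 2.55% and 1.65%. Among the 6809 mRNAs with no UUUUUUU, the ratio still correlated with transcript length at 0.316 and with 3′UTR length at 0.223. Intron composition moved with it too. The U content of introns correlated with the ratio at 0.319 over all 11844 mRNAs and at 0.240 among the 6608 with no UUUUUUU in the 3′UTR, and within 5 equal classes of intron U content the UUUUUUU density kept correlations of 0.238 to 0.329. By library, over 13005 mRNAs, intron U content gave 0.35, 0.35 and 0.24 in HUR, and -0.20 to 0.14 for single input libraries set against the others. What share of the pattern belongs to the 3′UTR, to introns or to length was not tested.

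At the level of isoforms, retained introns stood out. Of 104506 isoforms, 6734 (6.44%) were enriched and 6591 (6.31%) depleted. Against input set 1 the enriched count was 3169, and with a replicate block in a fit of the 6 libraries the counts were 2568 and 2432. Among 19390 isoforms annotated as retaining an intron, 1873 were enriched and 556 depleted (9.66% and 2.87%), whereas among 42461 protein-coding isoforms 1808 were enriched and 4239 depleted (4.26% and 9.98%). In 4247 genes that have both kinds, the median retained-intron isoform exceeded the top coding isoform of its gene by 0.87, 0.77 and 0.99 on the log2 scale in the 3 HUR libraries, against -0.05, -0.03 and 0.09 in single inputs. The shift was 0.48 to 0.71 in HNRNPU, 1.55 to 1.72 in HNRNPH1 and -1.20 to -1.07 in PABP. In 1000 genes, isoforms of at least 2 FPKM were called in both directions, and the pair with the largest gap was an enriched retained-intron isoform and a depleted coding isoform in 303 of them.

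RPL18, a large ribosomal subunit protein, is one such gene. Its retained-intron isoform ENST00000552851.1 measured 5.60, 9.99 and 14.1 FPKM in HUR and 0.00501, 2.07 and 0.000256 FPKM in input (2.82 ± 0.40), while the coding isoform ENST00000550645.1 measured 0.00162, 0.0427 and 14.4 FPKM against 102.0, 131.7 and 185.4 FPKM (-5.76 ± 0.69). In the other 4 genes with the largest gaps both isoforms are coding. For HNRNPK, which binds C-rich RNA, ENST00000351839.3 measured 24.0, 16.3 and 20.4 FPKM against 0.000940, 0.00816 and 0.478 FPKM (4.20 ± 0.76), and ENST00000360384.5 was below 0.02 FPKM in HUR against 63.5, 57.9 and 51.9 FPKM in input (-5.87 ± 0.57). The first of these changed sign against input set 1, at -0.07. DDX39B, an RNA helicase of mRNA export, CSNK1A1, casein kinase 1 alpha, and AGPAT3, an acyltransferase of phospholipid synthesis, completed the 5. The enriched AGPAT3 isoform, at 3.69, lost its call in 6 alternative settings, with values from 1.65 to 4.90 over all settings. The depleted one, at -4.18, lost its call against input set 1 (-2.03) and input set 2 (-2.79). With a replicate block in the fit of 6 libraries, both RPL18 isoforms and the depleted DDX39B isoform were not called either. How the authors' software divided reads among isoforms of 1 gene could not be checked, so isoform values near 0 are taken as listed.

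Earlier work names many mRNAs as HUR targets, and 45 of 50 on a list of them could be tested. Of these, 3 were enriched (8.57% of all genes were) and 4 depleted, with a median log2 difference of 0.10 beside 0.12 for all genes, which became -0.25 beside -0.23 on the centred scale, with 1 enriched and 8 depleted. Among all 13618 mRNAs 4.19% were enriched and 11.7% depleted, with a median of 0.02. ACTB, cytoplasmic beta actin, measured 1347, 1716 and 1333 FPKM in HUR against 489, 666 and 550 FPKM in input (1.37 ± 0.16, adjusted p = 2.86e-10 by limma). EIF4E, the cap-binding protein, measured 82.5, 84.6 and 60.8 FPKM against 39.2, 37.8 and 30.9 FPKM (1.05 ± 0.19), and fell short of 2-fold on the centred scale (0.70), against input set 2 (0.96) and without HUR replicate 1 (0.98), HUR replicate 2 (0.97) or input replicate 3 (0.95). ELAVL1 was the third. The count of 3 became 1 without HUR replicate 2. EIF4E and ELAVL1 both also fell short of 2-fold without HUR replicate 1 and against input set 2.

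The depleted reported targets were CCNB1 (-1.18), which drives mitosis, CYCS (-1.18), cytochrome c, TYMS (-1.05), thymidylate synthase, and SLC2A1 (-1.26), the glucose transporter. Without HUR replicate 1 the count of 4 became 2, with CCNB1 at -0.94 and TYMS at -0.93, and all 4 were under 2-fold against input set 1 (-0.41 to -0.78). MYC measured 71.7, 79.7 and 49.9 FPKM in HUR and 69.3, 81.3 and 70.1 FPKM in input, with overlapping groups and a difference of -0.15 ± 0.22 that did not pass the test. VEGFA (142, 166 and 136 against 199, 202 and 215 FPKM) and HIF1A (18.6, 21.2 and 14.7 against 13.6, 18.8 and 13.2 FPKM) did not pass either. Of 37 tested immediate early and other short-lived mRNAs, which often carry AU-rich elements, 0 were enriched and 6 depleted (4.19% and 11.7% of all mRNAs), with a median of -0.28. IER5, an immediate early response gene, had the largest of these differences at -2.09 (3.67, 2.68 and 3.40 against 16.8, 16.4 and 18.03 FPKM), followed by NFKBIA (-1.47), the NF-kappaB inhibitor.

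Among mRNAs of proteins that bind AU-rich or U-rich RNA, 3 of 25 were enriched and 0 depleted, beside 8.57% and 7.72% of all genes, with a median of 0.21 that was -0.14 on the centred scale, where 2 were enriched and 1 depleted. These were YBX1, ELAVL1 and PTBP3, a polypyrimidine tract-binding protein at 282, 252 and 242 FPKM in HUR against 94.8, 101 and 104 FPKM in input (1.36 ± 0.13). KHSRP, which promotes decay of AU-rich mRNAs, was at 0.92 and HNRNPA2B1 at -0.92, neither past 2-fold. Of 17 mRNAs for proteins that transport, modify or cleave HUR, 0 were called at a median of 0.20 (-0.15 when centred), with PRKCA (0.97), MDM2 (0.94) and SET (0.91) just under the limit. Leaving out HUR replicate 3 raised that count to 3. Of 49 mRNAs of the decay machinery, 1 was enriched, CNOT7 (1.07), a deadenylase whose call was lost on the centred scale (0.72) and against input set 2 (0.84), and 5 were depleted, with EXOSC4 (-2.51) of the exosome the lowest, at a median of 0.29 that was -0.06 on the centred scale. The mRNA shares of 4.19% enriched and 11.7% depleted apply beside these counts as well.

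Of 34 apoptosis mRNAs 6 were depleted and 0 enriched at a median of -0.11, beside 11.7% and 4.19% of all mRNAs, with 12 depleted on the centred scale and 4 against 9 inputs. The cell cycle list held 3 enriched and 5 depleted mRNAs of 44, shares near those of all genes (8.57% and 7.72%), and on the centred scale 1 and 9. CCND2, cyclin D2, measured 187, 185 and 166 FPKM in HUR against 57.3, 57.9 and 58.6 FPKM in input (1.61 ± 0.13, adjusted p = 7.18e-16 by limma). FBXW7, which marks cyclin E and MYC for degradation, had 1.19 and CDK6, the partner of D cyclins, 1.09. Both fell short of 2-fold on the centred scale (0.84 and 0.74), and FBXW7 also against all 9 inputs (0.95), input set 1 (0.70) and input set 2 (0.94). The mitotic kinases AURKB (-1.30) and PLK1 (-1.19) were depleted, but each lost its call in 1 alternative setting (-0.95 and -0.91). Without HUR replicate 1 the count of 5 became 3. Of 25 splicing regulators, 4 were enriched and 1 depleted (8.57% and 7.72% of all genes), with a median of 0.23 that was -0.12 when centred. SRRM1, a splicing coactivator, measured 150, 138 and 128 FPKM against 43.8, 44.5 and 50.5 FPKM (1.56 ± 0.18), SRSF6 had 1.44, SRPK1, a kinase of SR proteins, 1.19 (0.84 and not called when centred), and SRSF7 was depleted at -1.28. On the centred scale 2 were enriched and 2 depleted. TRA2A, the fourth enriched one at 1.02, fell short of 2-fold on the centred scale (0.67) and when any of 4 libraries was left out. Without HUR replicate 1, 2 splicing regulators were depleted in place of 1.

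Housekeeping groups held many depleted members. Of 83 ribosomal protein mRNAs, 0 were enriched and 67 depleted at a median of -2.11, against 7.72% of all genes depleted. The longer members RPL5 (0.62), RPL4 (0.46) and RPL3 (0.39) lay at the other end and were not called. Of 86 respiratory chain genes, 67 were depleted at a median of -1.98, COX8A among the lowest with 32.4, 38.9 and 36.4 FPKM in HUR against 440, 404 and 488 FPKM in input (-3.59 ± 0.22). The 1 enriched entry of that list, COX7BP1, is a pseudogene by name. Of 38 proteasome mRNAs 21 were depleted (median -1.04), of 76 replication-dependent histone mRNAs 41 were depleted and 2 enriched (-1.17; 1 enriched without HUR replicate 3 or input replicate 3), and of 13 mitochondrially encoded mRNAs 11 were depleted (-1.55). Small structured RNAs were depleted in 5 of 8 cases, RN7SL1 of the signal recognition particle with 3.60, 7.79 and 11.4 FPKM against 270, 174 and 231 FPKM (-4.81 ± 0.31).

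**Figure D4:**
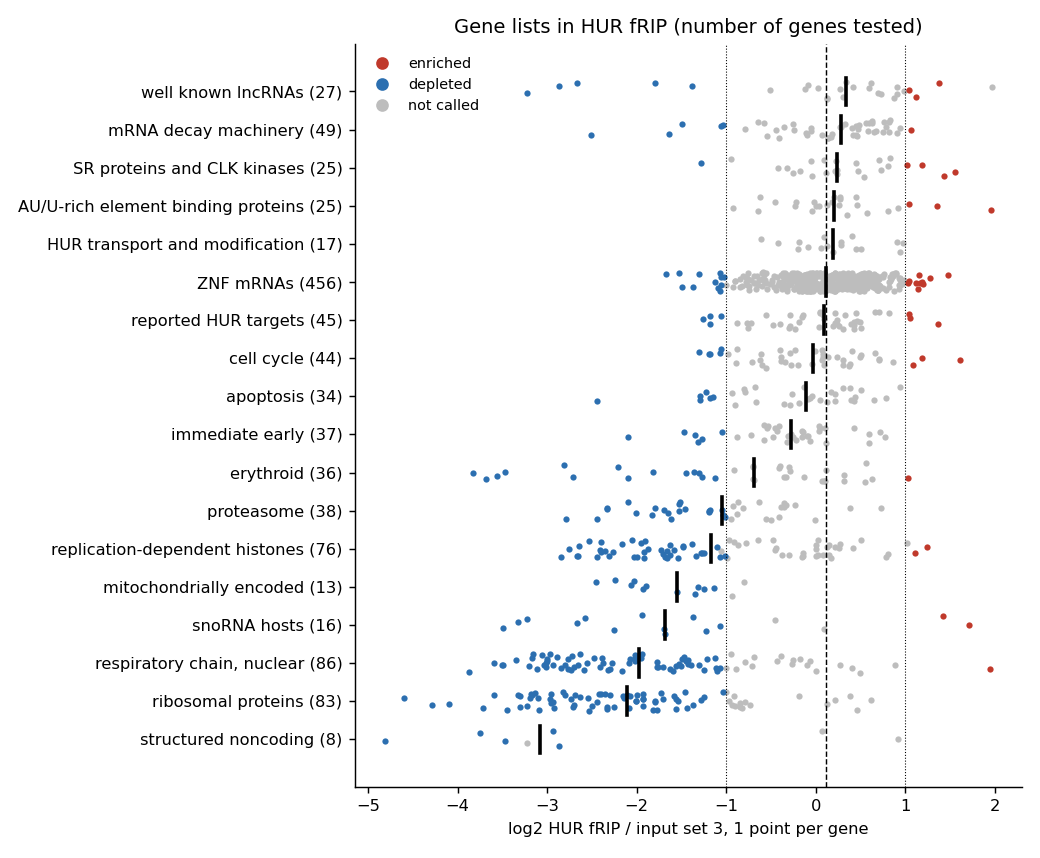
Log2 difference between HUR fRIP and input set 3 (horizontal axis) for each tested member of the gene lists, 1 point per gene, with the median of each list marked and the median of all genes (0.12) as a dashed line. Ribosomal proteins, respiratory chain, snoRNA hosts and structured RNAs sit well to the left, while reported HUR targets and zinc finger mRNAs (median 0.12 of 456) straddle the dashed line.

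Hosts of small nucleolar RNAs split. Of 16, 12 were depleted (7.72% of all genes were) at a list median of -1.69, SNHG8 (-3.32) and GAS5 (-1.69), a growth arrest transcript, among them. SNHG16 rose instead, at 215, 166 and 178 FPKM in HUR against 60.9, 56.4 and 50.5 FPKM in input (1.71 ± 0.23), as did SNHG17 at 134, 124 and 120 against 50.1, 46.7 and 42.3 FPKM (1.43 ± 0.29). Of 36 erythroid and hematopoietic genes, 14 were depleted and 1 enriched at a median of -0.69, beside 11.7% and 4.19% of all mRNAs, and on the centred scale 19 and 0. GATA1, the master erythroid transcription factor, measured 15.6, 21.1 and 20.5 FPKM against 87.1, 97.2 and 89.7 FPKM (-2.21 ± 0.14). RUNX1, a transcription factor of blood stem cells, was the enriched one at 1.03, a call lost on the centred scale (0.68), against input set 1 (0.80) and without HUR replicate 1 (0.96) or input replicate 3 (0.96). Of 456 zinc finger mRNAs 10 were enriched and 12 depleted, beside 4.19% and 11.7% of all mRNAs, with a median of 0.12 that became -0.23 when centred, where 1 was enriched and 34 depleted. Without HUR replicate 2 the count of 10 became 16. ZNF652 led them at 37.9, 30.1 and 33.6 FPKM against 11.3, 11.3 and 11.8 FPKM (1.48 ± 0.17).

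Whether an RNA is more HUR-bound than bound by another protein was tested as a difference between fRIPs, each relative to its nearest input. Against HNRNPU, which was set against input set 1, 700 of 25442 genes were higher in HUR (2.75%) and 1533 lower (6.03%). With all inputs as the reference for both proteins, 809 were higher and 2200 lower. Only 436 of the 700 and 909 of the 1533 were called in both settings, so these calls depend on the input sets used. Against HNRNPH1, also set against input set 1, 2051 were higher (8.06%) and 4542 lower (17.9%). The share of higher genes among these calls was 31.1%, which became 44.4% on the centred scale. With all inputs as the reference for both proteins, 2073 were higher and 5634 lower, with 1504 and 3979 called in both settings. Against PABP, which shares input set 3, 6028 were higher (23.7%) and 3996 lower (15.7%), which turned on the centred scale to 2771 and 7291.

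The mRNAs with the largest enrichment over input divided in this comparison. YBX1, UFM1, TFAP4, NECAB1 and ST6GALNAC2 were higher in HUR than in HNRNPU by 2.29, 1.82, 2.61, 2.37 and 2.40 on the log2 scale, with adjusted p values (limma) from 4.5e-10 to 2.9e-05, and were also higher than in HNRNPH1 by 1.33 to 3.09. VSIG4 (-0.04 ± 0.45), EPGN (-0.17 ± 0.33), KCNJ16 (-0.06 ± 0.47), ADCY10 (-0.18 ± 0.48) and SAMD4A (-0.31 ± 0.42) were not different from HNRNPU beyond their error. The latter 5 exceeded PABP by 3.02 to 5.28, whereas YBX1 exceeded PABP by 0.81 ± 0.27, under 2-fold. ELAVL1 exceeded HNRNPU by 1.01 ± 0.23 and HNRNPH1 by 1.63 ± 0.23, while its difference from PABP, 0.29 ± 0.16, did not pass the test (adjusted p = 0.123 by limma).

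Among the genes that the rule picked for the largest differences from the other proteins, most were short pseudogene or antisense features within other genes. RP11-717A5.1 measured 46.0, 40.5 and 95.7 FPKM in HUR and 16.8, 0 and 0 FPKM in input and exceeded all 3 other fRIPs, HNRNPU by 6.04 ± 1.45. AL590762.1 measured 293, 274 and 283 FPKM against 31.8, 24.2 and 46.8 FPKM, with 92% of its 25-base words in NONO, whose gene contains it. AL590452.1, a coding gene, measured 87.7, 83.3 and 71.1 FPKM against 25.6, 25.4 and 23.6 FPKM and exceeded PABP by 6.02 ± 0.26. MALAT1 exceeded PABP by 7.75 ± 1.31 (adjusted p = 7.80e-07 by limma) and HNRNPH1 by 9.51 ± 1.86, while its difference from HNRNPU, 0.22 ± 1.86, did not pass the test (adjusted p = 0.97 by limma). Of the 25-base words of MALAT1, 95.2% also lie in TALAM1, its antisense transcript. Of the ribosomal protein mRNAs, 79 of 83 lower in HUR than in PABP (15.7% of all genes were) and 61 lower than in HNRNPU (6.03% of all genes). Against HNRNPH1, 24 were lower and 9 higher, beside 17.9% and 8.06% of all genes.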

How the data were processed

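RNA was sequenced from 3 HUR fRIP and 9 input libraries of K562 cells within a fit of 79 libraries. The authors aligned reads to hg19 and made the deposited FPKM values per gene and isoform (CASAVA 1.4, TopHat, Cuffdiff and Cuffnorm in the submitters' processing notes), with the annotation of GENCODE 18. Whether counting used strand was not stated. The authors' own fold changes and p-values were not used. Their pooled FPKM for the input of the HUR comparison served only to see which input set it came from: its median absolute log2 difference over 16052 genes was 0.0620 from the mean of set 3, 0.163 from set 2 and 0.291 from set 1.

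Genes and isoforms with at least 1 FPKM in 2 libraries were tested on log2(FPKM + 1) with limma 3.58.1 (R 4.3.3, limma-trend, 1 mean per protein and input set), Benjamini-Hochberg over all features, and called at an adjusted p under 0.05 and over 2-fold. A fold on this scale understates the change of low genes. Ratios with features used Python 3.11.15 and scipy 1.17.1. Of 48453 genes and 185661 isoforms, 46055 and 172143 matched GENCODE 44 on GRCh37 by identifier. Sequence features belong to the transcript with the highest mean input level. The counts of called genes by transcript length, the shared 25-base words and the MALAT1 sequence are exceptions. They used the transcript with the highest mean over the HUR and input set 3 libraries together. Data were simulated with log2 changes of 1.5 or 2.5, in either direction, planted only in features above 5 FPKM in input. Of those planted among 25442 genes for HUR against input set 3, 96% to 100% were called, with 8 other genes. For 104506 isoforms the range was 62% to 94%, with 6 others. Recovery at lower levels, or of changes near 2-fold, was not simulated.

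Named genes were the 10 mRNAs and 6 lncRNAs with the largest enrichment (every HUR library above all 9 inputs, mean of at least 5 FPKM in HUR), the 10 mRNAs and 4 lncRNAs with the largest depletion (below all 9, mean of at least 5 FPKM in input), ELAVL1, the 5 genes with the largest gap between an enriched and a depleted isoform of at least 2 FPKM, the 4 with the largest difference from each of HNRNPU, HNRNPH1 and PABP, and examples from the gene lists. Members and lists were chosen with earlier results of these data known, and the views by U-run bins, classes of length and intron composition, position of noncoding genes and level were added after values were seen. Alternatives covered pseudocounts of 0.1 and 0.5, 2 other filters, centring, other inputs, a 6-library fit, a replicate block, the longest transcript, and each library left out. Equal replicate numbers did not pair the libraries (correlations of deviations 0.018, -0.003 and 0.051). Depth was inferred from FPKM steps, where 96.0% to 98.8% of low values in HUR and input set 3 lay within 0.15 of a whole number of fragments.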

Additional observations from a re-analysis of the deposited data

How the results depend on the processing

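On centred libraries 854 genes were enriched and 3318 depleted, and 2771 higher and 7291 lower than in PABP. Against input set 1, 1017 genes and 3169 isoforms were enriched. Equal replicate numbers did not pair the libraries; with a replicate block in the 6-library fit 2568 isoforms were enriched and 2432 depleted, and 1827 genes enriched and 1891 depleted, while the block over all libraries gave 2193 and 1981 genes. The abundance correlation (-0.133 ± 0.030, n = 3 libraries) changed sign with no filter, at 0.0336, and was -0.170 at a pseudocount of 0.1, -0.357 with 1 FPKM required in all libraries of a group and -0.0954 with 9 inputs. With no filter and with that stricter filter, in turn, transcript length gave 0.315 and 0.430, exon number 0.0845 and 0.135 (0.128 with the longest transcript), intron length 0.260 and 0.384 (0.312 at a pseudocount of 0.1), 3′UTR length 0.291 and 0.399, and the lncRNA minus mRNA difference 0.145 and 0.438. That difference was 0.428 and 0.341 at pseudocounts of 0.1 and 0.5 and 0.242 with 9 inputs. With no filter UUUUUUU density gave 0.298 and the control runs 0.210. The retained intron shift was 1.18 and 1.00 at pseudocounts of 0.1 and 0.5, 0.659 with 9 inputs and 0.631 with the longest transcript. HNRNPK isoform ENST00000351839.3 changed sign against input set 1, at -0.0691. The cause was not tested for any of these.

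Leaving out each library gave 2094 to 2384 enriched and 1870 to 2036 depleted genes, and 5993 to 6987 enriched and 5725 to 6212 depleted isoforms. Of the alternatives for named genes and isoforms, 1843 kept direction and side of the threshold, 83 lost the call, 28 gained it and 1 reversed. HUR replicate 3 was the shallowest of the 6 libraries.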

Other observations

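Other length and composition measures also went with the HUR ratio. Across 13406 mRNAs, a wider set than above, summed intron length had Spearman correlations of 0.33, 0.35 and 0.31 in the 3 HUR libraries. The length of the whole transcript, 3′UTR included, gave 0.39, 0.40 and 0.34. Single inputs against the other inputs gave -0.09 to 0.08 and -0.10 to 0.12, in turn. The number of exons gave 0.09, 0.13 and 0.11 and the length of the coding sequence 0.19, 0.21 and 0.17. U content of the coding sequence gave 0.21, 0.20 and 0.15, and that of the 5′UTR 0.06, 0.04 and 0.02, within the range of single inputs (-0.07 to 0.10). Among lncRNAs of 300 to 999 bases, 465 of 3436 were enriched and 91 depleted, while among mRNAs of that length 87 of 3005 were enriched and 695 depleted.

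Mitochondrial transfer RNA genes gave the lowest points of the plot of log2 difference against level. MT-TS2, the second serine tRNA, was listed at 0 in all 3 HUR libraries and at 6131, 1219 and 7237 FPKM in input, so no fold is given.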
